A study of Homo sapiens with 15 samples.

Results

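The JAK, STAT and SOCS genes described here are 10 genes chosen by symbol, of the 60664 genes in the deposited expression table. They are IL6ST, JAK1, JAK2, STAT3, STAT5A, STAT5B, SOCS2, SOCS3, CISH and PIM1. Each symbol was matched to its Ensembl identifier, and all 10 were found. Of these, 9 passed the filter on low values, a value of 1 TPM or more in 3 or more of the 15 libraries that 14899 genes met, and STAT5A did not. TPM is an abundance corrected for transcript length, so levels of different genes can be set side by side.

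HCT116, a human colorectal carcinoma cell line labelled WT, was grown untreated or with an olive polyphenol preparation at 0.0154 mg/mL, and RNA was taken after 72 h. The preparations were synthetic hydroxytyrosol (HTyr), a phenol of the olive, and HTyr-enriched extracts of olive mill waste, called AE for Apulia, TE for Tuscany and SE for Sicily. Each of the 5 groups had 3 libraries of poly(A) RNA, made with a stranded kit. The question these data allow is how transcripts of this pathway differed between untreated and treated cells, and between pure HTyr and the extracts. The libraries are numbered as biological replicates of a single cell line. The study describes its data in general as independent experiments, but whether these libraries came from separate cultures is not given for them. The p-values reflect how far these samples spread, part of which may be technical. The extracts are mixtures matched to HTyr by total mass, so a difference between treatments is not a difference between single compounds. The codes in the sample titles of TE and SE are crossed with the column names of the table, and the groups follow the region and description labels, as do the column headings of the study's own listing of these values. Were the title codes the right ones, TE and SE values would change places here.

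In this pathway a cytokine binds a receptor that has no kinase of its own, and Janus kinases (JAK) bound to the receptor phosphorylate STAT proteins. Phosphorylated STATs pair, enter the nucleus and switch on genes, among them the SOCS genes and CISH, whose products bind the receptor or the kinase and dampen the signal. In intestinal epithelium and in colorectal tumours the branch from interleukin-6 type cytokines to STAT3 is known for driving growth and survival. RNA levels show how much of each component is transcribed and kept, and say nothing direct about phosphorylation.

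SOCS3, the feedback inhibitor that STAT3 induces, fell with all 4 treatments. JAK2 fell after HTyr, and PIM1, a kinase gene induced by STATs, fell after AE. None of the 9 tested genes rose with any treatment. Rises and falls were called from a limma fit to log2(TPM + 0.5), where the p adjusted by Benjamini-Hochberg over all 14899 genes was under 0.05 and the fold change, up or down, was over 1.5. This scale understates the change of genes at low TPM. Against untreated cells, 2 of 9 genes fell after AE (SOCS3 and PIM1), beside 5.81% of all tested genes. After TE and after SE, 1 of 9 fell (SOCS3), beside 5.26% and 11.0% of all tested genes. After HTyr 2 of 9 fell (SOCS3 and JAK2), beside 8.45%. In the mean of the 4 treatments 1 of 9 fell (SOCS3), beside 7.43%. The count of members that rose was 0 in each of these 5 comparisons, also at an unadjusted p under 0.05 from limma, whereas 10.7% of all tested genes rose after AE, 7.46% after TE, 17.0% after SE, 7.80% after HTyr and 10.4% in the mean. With counts of 1 or 2 of 9, these shares describe single genes and not the group. The median log2 fold change of the 9 genes was -0.27 after AE, -0.17 after TE, -0.43 after SE and -0.43 after HTyr, beside medians over all tested genes of 0.09, 0.05, 0.09 and -0.04.

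The treated groups share the same 3 untreated libraries, so the 4 comparisons are not independent of each other. In bulk RNA, fewer cells that express a gene and less RNA per cell cannot be told apart.

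**Figure D1:**
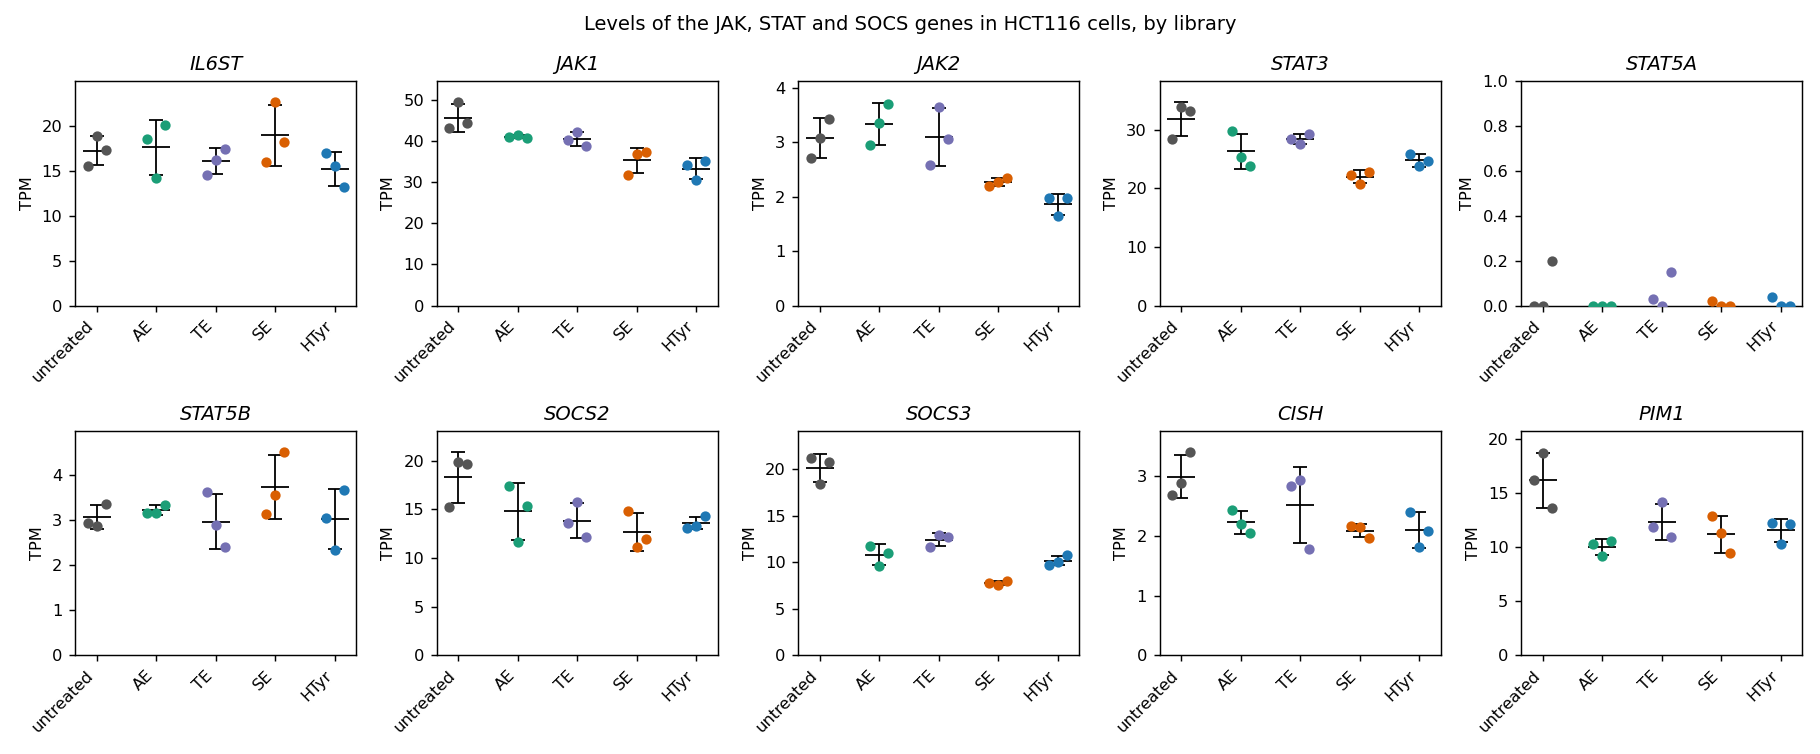
Level in TPM of each of the 10 genes (y axis, starting at 0) in every library of the 5 groups (x axis). Points are libraries, and the long bar with its whiskers is the mean ± SD of 3 libraries, left out for STAT5A, which is listed at 0 in most libraries. SOCS3 lies at 18.4 to 21.2 TPM in untreated cells and at 7.53 to 13.0 TPM in the 12 treated libraries, with no overlap.

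IL6ST (ENSG00000134352, chr5:55935095-55995022, minus strand in GENCODE 44 on GRCh38) encodes gp130, the receptor chain shared by the interleukin-6 family of cytokines. Its level was 15.6, 18.8 and 17.3 TPM in the untreated libraries, 18.5, 14.1 and 20.1 after AE, 14.6, 16.2 and 17.4 after TE, 15.9, 22.6 and 18.2 after SE and 16.9, 15.5 and 13.2 after HTyr. The 5 groups overlapped, and libraries within AE and within SE lay further apart than the group means did. The log2 fold changes against untreated cells were 0.02 (95% interval -0.30 to 0.34) after AE, -0.10 (-0.41 to 0.22) after TE, 0.12 (-0.19 to 0.44) after SE and -0.18 (-0.50 to 0.14) after HTyr. None passed the test, and these intervals leave room for changes of up to 0.50 on the log2 scale.

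JAK1 (ENSG00000162434, chr1:64833223-65067754, minus strand), a kinase bound to gp130 and to many other cytokine receptors, was the most abundant of the 10 genes. It stood at 43.2, 49.6 and 44.3 TPM in untreated cells, 40.9, 41.4 and 40.8 after AE, 40.3, 42.1 and 38.7 after TE, 31.8, 36.7 and 37.3 after SE and 34.3, 30.4 and 35.2 after HTyr. All 12 treated libraries lay below the lowest untreated one, by a small margin after AE and TE. The log2 fold change was -0.15 (standard error 0.0776, limma adjusted p = 0.144) after AE and -0.17 (adjusted p = 0.102) after TE. It was -0.37 (adjusted p = 0.0012) after SE and -0.45 (adjusted p = 0.000461) after HTyr. The last 2 passed the p threshold but not the fold, so JAK1 was not called changed.

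JAK2 (ENSG00000096968, chr9:4984390-5129948, plus strand), the kinase of the erythropoietin, growth hormone and prolactin receptors and a partner of gp130, was far less abundant than JAK1. Its level was 2.71, 3.08 and 3.44 TPM in untreated cells and 1.97, 1.64 and 1.97 after HTyr. These 2 groups did not overlap. It was 2.95, 3.36 and 3.71 after AE, 2.59, 3.66 and 3.06 after TE and 2.19, 2.27 and 2.34 after SE. AE and TE overlapped the untreated libraries, and SE lay below all 3 of them. JAK2 fell after HTyr by 0.60 on the log2 scale (standard error 0.141, limma adjusted p = 0.00431). The log2 fold changes were 0.10 (adjusted p = 0.596) after AE, 0.01 (0.984) after TE and -0.37 (0.0432) after SE, and none of these was called. The HTyr fall lies close to the fold threshold. It was no longer called with a pseudocount of 1 (-0.51), with median-ratio or quantile scaling (-0.58 in both), or without untreated replicate 3 or HTyr replicate 2 (-0.53 in both).

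STAT3 (ENSG00000168610, chr17:42313324-42388540, minus strand), the transcription factor activated downstream of gp130, was at 28.4, 33.9 and 33.1 TPM in untreated cells. It was at 29.7, 25.4 and 23.9 TPM after AE, 28.4, 27.6 and 29.3 after TE, 22.4, 20.7 and 22.8 after SE and 25.9, 23.8 and 24.7 after HTyr. The SE and HTyr libraries lay below every untreated library, and AE and TE overlapped them. STAT3 showed its largest difference after SE, at -0.52 (95% interval -0.71 to -0.34, limma adjusted p = 0.000181), short of the fold threshold. The log2 fold change was -0.27 after AE (adjusted p = 0.0235), -0.16 after TE (0.187) and -0.35 after HTyr (0.00558). The SE difference passed the threshold with median-ratio scaling (-0.63), with quantile normalization (-0.61) and without untreated replicate 1 (-0.60).

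STAT5A and STAT5B encode closely related STATs used by growth hormone, prolactin and interleukin-2 type receptors, and they lie side by side next to STAT3. STAT5A (ENSG00000126561, chr17:42287547-42311943, plus strand) was listed at 0.00, 0.00 and 0.20 TPM in untreated cells and at 0.00 in all 3 AE libraries. It was listed at 0.03, 0.00 and 0.15 TPM after TE, 0.02, 0.00 and 0.00 after SE and 0.04, 0.00 and 0.00 after HTyr. With TPM alone, a value of 0 may also be a failed estimate, so no fold is given for it. STAT5B (ENSG00000173757, chr17:42199176-42288633, minus strand) was at 2.94, 2.87 and 3.36 TPM in untreated cells, 3.15, 3.15 and 3.34 after AE, 3.62, 2.88 and 2.39 after TE, 3.12, 3.56 and 4.50 after SE and 3.05, 2.33 and 3.67 after HTyr. All groups overlapped, and the log2 fold changes ran from -0.05 after TE to 0.24 after SE (95% interval -0.13 to 0.61), none of them called.

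The value of each STAT5 gene carries some uncertainty from the other. The 2 genes overlap by 1087 bases on opposite strands, and the strand setting used for counting is not given. Of the different 50-base windows in protein-coding STAT5B transcripts, 7.8% also occur in those of STAT5A, and 5.58% of 100-base windows do. The reverse shares, of STAT5A windows found in STAT5B, are 10.6% and 7.32%. The study's paired reads were longer than both windows, and shares at their length were not computed. The split of such reads was made by the authors' quantification.

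SOCS3 (ENSG00000184557, chr17:78356778-78360077, minus strand) encodes the inhibitor that binds gp130 and JAKs and is itself induced by STAT3. It was at 21.2, 18.4 and 20.8 TPM in untreated cells, 11.8, 9.58 and 11.0 after AE and 11.7, 13.0 and 12.7 after TE. It was at 7.77, 7.53 and 8.03 TPM after SE and 9.75, 10.0 and 10.7 after HTyr. All 12 treated libraries lay below all 3 untreated ones, and the 3 SE libraries lay below the other 9 treated libraries. Group means were 20.1 ± 1.52 TPM (SD, n = 3) in untreated cells, 10.8 ± 1.12 after AE, 12.4 ± 0.690 after TE, 7.78 ± 0.250 after SE and 10.2 ± 0.509 after HTyr.

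SOCS3 fell by 0.87 on the log2 scale after AE (limma adjusted p = 4.26e-06), by 0.67 after TE (adjusted p = 6.1e-05), by 1.31 after SE (adjusted p = 3e-08) and by 0.95 after HTyr (adjusted p = 2.68e-06), with a standard error of 0.0869 in each. In the mean of the 4 treatments it fell by 0.95 (standard error 0.0687, adjusted p = 9.99e-08). In order of level the groups ran untreated, TE, AE, HTyr and SE. Of the neighbours in this order, TE and AE differed by 0.20 (adjusted p = 0.381) and AE and HTyr by 0.08 (adjusted p = 0.606), so neither pair differed beyond the spread by the test. SE was lower than HTyr by 0.36 (adjusted p = 0.0068), which passed the p threshold and not the fold.

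The profile of SOCS3 over the 15 libraries was compared with the 10380 tested genes that have a mean of at least 5 TPM. The closest were ZFP36, which encodes an RNA-binding protein that promotes decay of AU-rich messages, with a Pearson r of 0.987, and CTIF, a factor for translation from the nuclear cap-binding complex, with an r of 0.980. ZFP36 had means of 67.9 TPM in untreated cells, 29.9 after AE, 33.9 after TE, 17.9 after SE and 27.4 after HTyr. CTIF had 17.5, 8.04, 8.63, 5.59 and 7.07 TPM in the same order. Both followed the order of SOCS3, with untreated cells highest, TE next and SE lowest. These r values are a description over libraries that fall into the same 5 groups, so differences between group means enter them.

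SOCS2 (ENSG00000120833, chr12:93569814-93583487, plus strand), an inhibitor known for limiting growth hormone signalling, was at 15.3, 19.9 and 19.7 TPM in untreated cells. It was at 17.4, 11.7 and 15.3 TPM after AE, 13.6, 15.7 and 12.1 after TE, 14.9, 11.1 and 12.0 after SE and 13.1, 13.3 and 14.3 after HTyr. The SE and HTyr libraries lay below the lowest untreated library, which itself lay well under the other 2. The log2 fold changes were -0.30 (limma adjusted p = 0.131) after AE, -0.39 (0.0632) after TE, -0.51 (0.0115) after SE and -0.41 (0.0469) after HTyr. None reached the fold threshold, although SE did with median-ratio scaling (-0.62), without untreated replicate 1 (-0.63) and without SE replicate 1 (-0.63).

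CISH (ENSG00000114737, chr3:50606489-50611774, minus strand) encodes the founding SOCS family protein and is a classical target of STAT5. Its promoter is shown because it was the only promoter window among those of these genes that holds the palindromic STAT motif TTCNNNGAA, here in capitals. The RefSeq table (GRCh38.p14) gives windows of 300 bases, 250 before to 50 after a start site, for 9 of the 10 genes, with 17 windows in all and none for SOCS2. The SOCS3 windows, chr17:78359618-78359917 and chr17:78360876-78361175, leave out the 250 bases before its gene start at 78360077. That stretch was not searched. The STAT5B window, chr17:42276342-42276641, does not reach its gene start at 42288633 either. The motif reads the same on both strands, and it occurs in 7.66% of all 35116 windows. The CISH window holds 4 copies, which begin 241, 230, 129 and 112 bases before the start site, and at least 4 copies were found in 0.0199% of all windows. The stretch that holds them is chr3:50611866-50612024, minus strand, 159 bases:
CISH promoter: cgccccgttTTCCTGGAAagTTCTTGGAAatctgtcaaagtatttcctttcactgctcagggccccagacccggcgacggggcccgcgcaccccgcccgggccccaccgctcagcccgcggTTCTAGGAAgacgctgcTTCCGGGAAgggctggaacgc
A match of letters is a description, and the other windows without it show only that these letters are not within them.

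CISH was at 2.69, 2.89 and 3.40 TPM in untreated cells, 2.43, 2.20 and 2.04 after AE, 2.83, 2.94 and 1.78 after TE, 2.16, 2.14 and 1.96 after SE and 2.40, 1.81 and 2.08 after HTyr. The AE, SE and HTyr libraries lay below all untreated ones, and TE had 2 libraries among them and 1 below. The log2 fold changes were -0.36 (limma adjusted p = 0.108) after AE, -0.23 (0.317) after TE, -0.43 (0.0447) after SE and -0.43 (0.0564) after HTyr, and none was called.

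PIM1 (ENSG00000137193, chr6:37170152-37175428, plus strand) encodes a survival kinase whose gene is induced by STAT3 and STAT5. It was at 16.2, 18.7 and 13.6 TPM in untreated cells and at 10.3, 9.15 and 10.6 after AE. It was at 11.8, 14.2 and 10.9 TPM after TE, 12.9, 11.3 and 9.45 after SE and 12.2, 10.3 and 12.1 after HTyr. Of the 12 treated libraries 11 lay below the lowest untreated one, and the exception was TE replicate 2. PIM1 fell after AE by 0.66 on the log2 scale (standard error 0.137, limma adjusted p = 0.00178). That call was lost without untreated replicate 2, the highest library (-0.55). The log2 fold changes after TE (-0.38, adjusted p = 0.0485), SE (-0.51, 0.00661) and HTyr (-0.46, 0.0162) passed the p threshold and not the fold. The SE value passed both with median-ratio scaling (-0.61), without untreated replicate 3 (-0.62) and without SE replicate 1 (-0.61). The mean of the 4 treatments, at -0.50, passed both without untreated replicate 3 (-0.62).

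**Figure D2:**
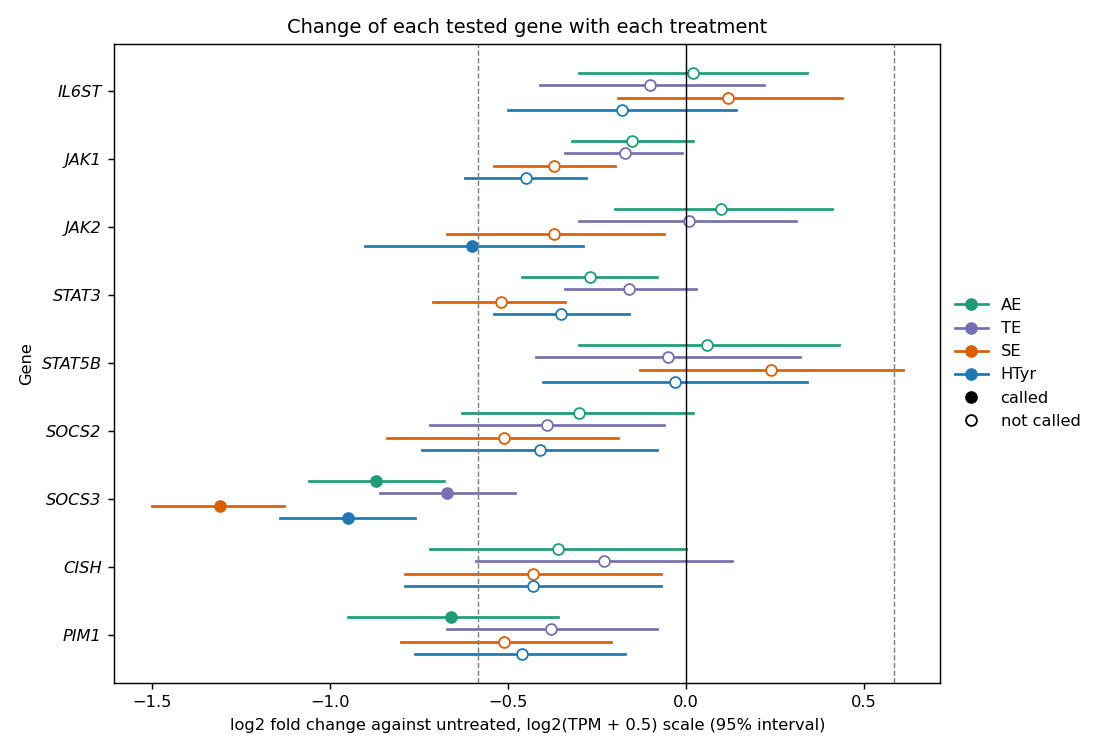
Change from untreated cells in log2(TPM + 0.5) (x axis) with its 95% interval for the 9 tested genes (y axis) and the 4 treatments (colours). Filled points were called, and dashed lines mark a 1.5-fold change. SOCS3 is the only gene called with every treatment, from -0.67 after TE to -1.31 after SE.

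In untreated cells the 10 genes stood in the order JAK1, STAT3, SOCS3, SOCS2, IL6ST, PIM1, JAK2, STAT5B, CISH and STAT5A by mean TPM. SOCS3, SOCS2, IL6ST and PIM1 were within 16.2 to 20.1 TPM, with libraries that overlapped between neighbours, and JAK2, STAT5B and CISH were within 2.99 to 3.08 TPM. After SE the mean of SOCS3, at 7.78 TPM, lay under those of SOCS2 (12.7 TPM), IL6ST (18.9 TPM) and PIM1 (11.2 TPM). The order was the same after HTyr, with SOCS3 at 10.2, SOCS2 at 13.6, IL6ST at 15.2 and PIM1 at 11.5 TPM. There the libraries of SOCS3 and PIM1 overlapped. After AE and TE the mean of SOCS3 (10.8 and 12.4 TPM) lay under those of SOCS2 and IL6ST but above PIM1 (9.98 and 12.3 TPM).

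The treatments were then compared with each other, in 6 pairs and 54 tests of a member. Of these tests 3 were called. JAK2 was higher in AE than in HTyr by 0.70 (95% interval 0.40 to 1.00, limma adjusted p = 0.0128), and it was 1 of 9 members called, beside 1.34% of all tested genes. JAK2 was also higher in TE than in HTyr by 0.60 (0.30 to 0.91, adjusted p = 0.037), again 1 of 9 beside 0.705% of all genes. The libraries of both extracts lay above all 3 HTyr libraries. The AE difference was not called without HTyr replicate 2 (0.63) or in a fit of the 2 groups alone (0.70). The TE difference was not called with a pseudocount of 1 (0.51), with no filter on low values (0.60), with median-ratio (0.54) or quantile (0.56) scaling, in a fit of the 2 groups alone (0.60), or without any of AE replicate 2 (0.60), TE replicate 2 (0.49), TE replicate 3 (0.61) and HTyr replicates 1, 2 and 3 (0.64, 0.53 and 0.64).

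SOCS3 was lower in SE than in TE by 0.64 (95% interval of the log2 difference -0.83 to -0.46, limma adjusted p = 0.000108), and it was 1 of 9 members called, beside 8.36% of all tested genes. The SE libraries, at 7.53 to 8.03 TPM, lay below the TE libraries, at 11.7 to 13.0 TPM. SOCS3 in SE against AE differed by -0.44 (-0.63 to -0.26, adjusted p = 0.00306), short of the fold. No member was called between SE and HTyr, beside 7.36% of all tested genes, between SE and AE, beside 4.72%, or between AE and TE, beside 0.0873%. At an unadjusted p under 0.05 from limma, 1 member differed in SE against HTyr, 4 in SE against AE and 1 in AE against TE. For STAT3 the widest difference was SE against TE, at -0.37 (-0.55 to -0.18, adjusted p = 0.0064), and JAK1 in AE against HTyr was at 0.30 (0.13 to 0.47, adjusted p = 0.0303), neither past the fold. A difference that misses the threshold does not show that these preparations act alike. The interval for IL6ST in SE against HTyr, for example, ran from -0.01 to 0.62.

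**Figure D3:**
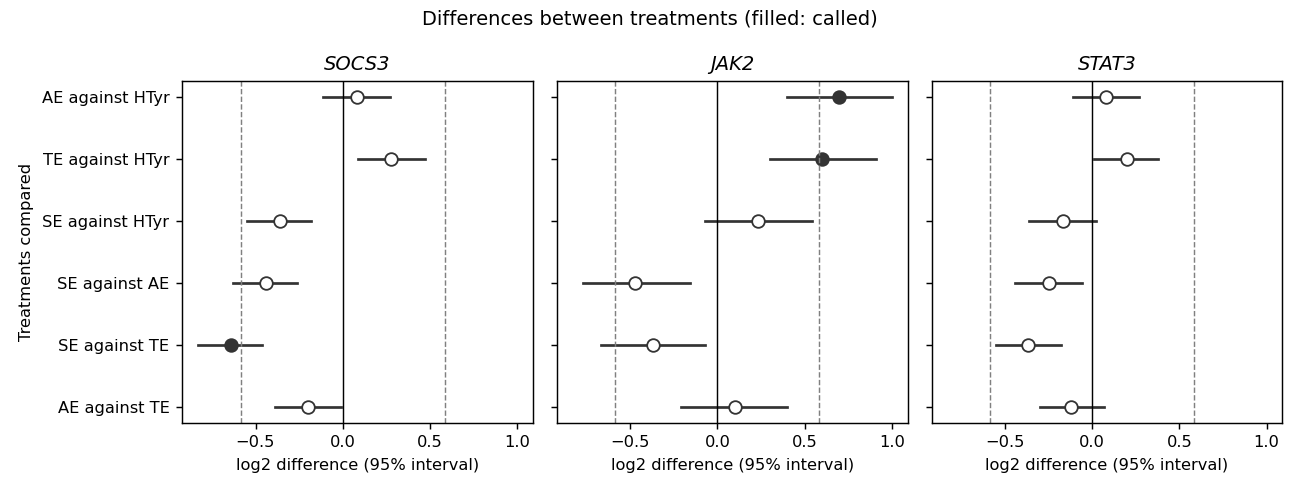
Log2 difference (x axis, log2(TPM + 0.5) scale) with its 95% interval between each pair of treatments (y axis) for SOCS3, JAK2 and STAT3. Positive values mean higher in the treatment named first, filled points were called, and dashed lines mark a 1.5-fold change. The 3 filled points are SOCS3 in SE against TE (-0.64) and JAK2 in AE (0.70) and TE (0.60) against HTyr.

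The rest of the pathway was described with 102 other genes in 5 lists by role, of which 76 passed the filter. Falls numbered 9 for AE (11.8% of the 76, beside 5.81% of all tested genes), 6 for TE (7.89%, beside 5.26%), 20 for SE (26.3%, beside 11.0%) and 12 for HTyr (15.8%, beside 8.45%). Rises numbered 4 for AE (5.26%, beside 10.7%), 2 for TE (2.63%, beside 7.46%), 7 for SE (9.21%, beside 17.0%) and 2 for HTyr (2.63%, beside 7.80%). In the mean of the 4 treatments 3 rose (3.95% of the 76, beside 10.4% of all genes) and 11 fell (14.5%, beside 7.43%). The median log2 fold change of the 76 was -0.09 after AE, -0.04 after TE, -0.18 after SE and -0.19 after HTyr.

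Of 23 ligand genes 10 passed the filter. After AE, SE and HTyr 4 fell (40%, beside 5.81%, 11.0% and 8.45% of all tested genes), and after TE 2 fell (20%, beside 5.26%). IL6, the best known ligand of gp130, was listed at 0 in all 15 libraries. LIF, another gp130 ligand, was the abundant one, at 84.3, 85.6 and 76.9 TPM in untreated cells and 54.6 to 84.4 TPM in treated ones, and was not called. CLCF1, a ligand of the ciliary neurotrophic factor receptor, was at 13.4 to 15.5 TPM untreated and 6.76 to 10.1 TPM treated, and fell with all 4 treatments (-0.65 after AE, -0.66 after TE, -1.01 after SE and -0.60 after HTyr). IL12A, a subunit of interleukin-12 and interleukin-35, also fell with all 4, from 5.60 to 5.79 TPM untreated to 1.60 to 3.77 TPM treated (-1.38, -1.22, -0.95 and -0.90 in the same order). IL11, a gp130 ligand, fell after AE (-1.28), SE (-1.35) and HTyr (-0.95), and TSLP, an epithelial cytokine, fell with the same 3 treatments (-0.71, -1.49 and -0.89). TSLP stood at 1.33 to 1.62 TPM untreated and passed the filter mainly through those libraries, so its change is the less certain. The ligand genes that rose were CNTF (0.66) and EBI3 (1.13), both after SE, named here after their values were seen. They were 20% of the 10, beside 17.0% of all tested genes that rose after SE. CNTF was at 0.72 to 0.89 TPM untreated and EBI3 at 0.20 to 0.76 TPM. Both passed the filter only through treated libraries, SE among them, so these rises are the less certain.

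Of 28 receptor genes 19 passed the filter. Rises and falls numbered 2 and 1 for AE, 1 and 1 for TE, 2 and 5 for SE, and 1 and 4 for HTyr. The share that rose was 10.5% for AE, beside 10.7% of all tested genes, and 5.26% for TE, beside 7.46%. For SE it was 10.5%, beside 17.0%, and for HTyr 5.26%, beside 7.80%. The share that fell was 5.26% for AE and for TE, next to the 5.81% and 5.26% of all tested genes, and 26.3% for SE and 21.1% for HTyr, beside 11.0% and 8.45%. IL6R, the chain that binds interleukin-6 before gp130 joins, was at 4.92, 5.49 and 6.33 TPM in untreated cells and 2.38 to 3.74 TPM in treated ones, without overlap. It fell with all 4 treatments (-0.71 after AE, -0.77 after TE, -0.96 after SE and -0.78 after HTyr). LEPR, the leptin receptor, fell after SE (-0.91) and HTyr (-0.83), and OSMR, the oncostatin M chain that pairs with gp130, fell after SE (-0.61). IL20RB, a chain of the receptors for the interleukin-20 group, was at 20.0 to 24.3 TPM untreated, 18.8 to 20.8 after AE, 20.4 to 22.2 after TE, 12.7 to 14.1 after HTyr and 2.93 to 5.25 after SE. It fell after SE by 2.41 on the log2 scale and after HTyr by 0.75. It was lower in SE than in HTyr (-1.65, limma adjusted p = 3.98e-06), AE (-2.20, 3.67e-07) and TE (-2.31, 1.65e-07). Outside the rule for named genes, IL15RA fell after SE (-1.07) and HTyr (-0.73), and IL22RA1 rose after AE (0.75) and SE (1.04). IL22RA1 was at 0.29 to 0.59 TPM untreated and passed the filter only through AE and SE libraries. These are the groups where it was called, so its rises are the less certain.

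All 6 other JAK and STAT genes passed the filter, and 1 was called with any treatment. STAT4, the STAT used by the interleukin-12 receptor, was at 0.95, 1.38 and 1.19 TPM untreated and 2.77, 2.19 and 1.84 TPM after SE, and rose after SE by 0.72 (limma adjusted p = 0.00642). It was 1 of 6 (16.7%), beside 17.0% of all tested genes that rose after SE. After AE, TE and HTyr no gene of this list was called, and at an unadjusted p under 0.05 from limma 4, 1 and 2 of the 6 differed. The median log2 fold change of this list was 0.31 after AE, 0.10 after TE, 0.37 after SE and 0.03 after HTyr.

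Among 21 other inhibitors and adaptors 19 passed the filter, and 0 rose with any treatment. Of all tested genes 10.7% rose after AE, 7.46% after TE, 17.0% after SE and 7.80% after HTyr. At an unadjusted p under 0.05 from limma, 5 of this list after AE, 4 after TE, 5 after SE and 2 after HTyr were higher. With 1 or 2 genes that fell, the shares were 5.26% for AE, beside 5.81% of all tested genes, and 10.5% for TE, SE and HTyr, beside 5.26%, 11.0% and 8.45%. SOCS7, a less studied member of the SOCS family, was at 37.9 to 44.8 TPM untreated and 18.7 to 26.3 TPM treated. It fell after AE (-0.82), TE (-0.69), SE (-0.91) and HTyr (-0.75). STAM2, an adaptor that binds JAKs and sorts receptors on endosomes, fell after TE (-0.60), SE (-0.80) and HTyr (-0.79). SOCS1, the family member closest to SOCS3 in its action on JAKs, stayed under 1 TPM in all libraries and was not tested.

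Among 24 other STAT targets 22 passed the filter. After SE 9 fell and 2 rose, after AE 3 fell and 2 rose, after TE 1 fell and 1 rose, and after HTyr 2 fell and 1 rose. The share that fell was 40.9% for SE, beside 11.0% of all tested genes, and 13.6% for AE, beside 5.81%. For TE it was 4.55%, beside 5.26%, and for HTyr 9.09%, beside 8.45%, both near the share of all genes. The share that rose was 9.09% for AE, beside 10.7%, and 4.55% for TE, beside 7.46%. For SE that share was 9.09%, beside 17.0%, and for HTyr 4.55%, beside 7.80%. MYC, the growth-promoting transcription factor, was at 363 to 365 TPM untreated and 194 to 248 TPM treated, and fell with all 4 (-0.65 after AE, -0.68 after TE, -0.83 after SE and -0.75 after HTyr). BIRC5, which encodes survivin, a protein of mitosis and of cell survival, went the other way, from 38.3 to 48.4 TPM untreated to 73.4 to 118 TPM treated. It rose by 1.03 after AE, 0.79 after TE, 1.42 after SE and 1.01 after HTyr. TIMP1, an inhibitor of metalloproteases, fell after AE (-0.68) and SE (-0.70). BCL2L1, which encodes the survival protein BCL-XL, was at 229 to 247 TPM untreated, 188 to 202 TPM after AE, TE and HTyr and 116 to 127 TPM after SE. It fell after SE (-0.97, limma adjusted p = 1.94e-09) and was lower in SE than in HTyr (-0.65), AE (-0.66) and TE (-0.68). Many of these targets also answer to regulators other than STATs, and the list does not separate them. The genes of this list called outside the rule were IRF1 (0.83) and CDKN1A (-0.77) after AE and JUNB (-0.65) after HTyr, and after SE HIF1A (0.60) and 6 that fell by 0.62 to 0.95, BCL3, CEBPB, CEBPD, JUNB, GRB10 and TNFRSF1A.

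**Figure D4:**
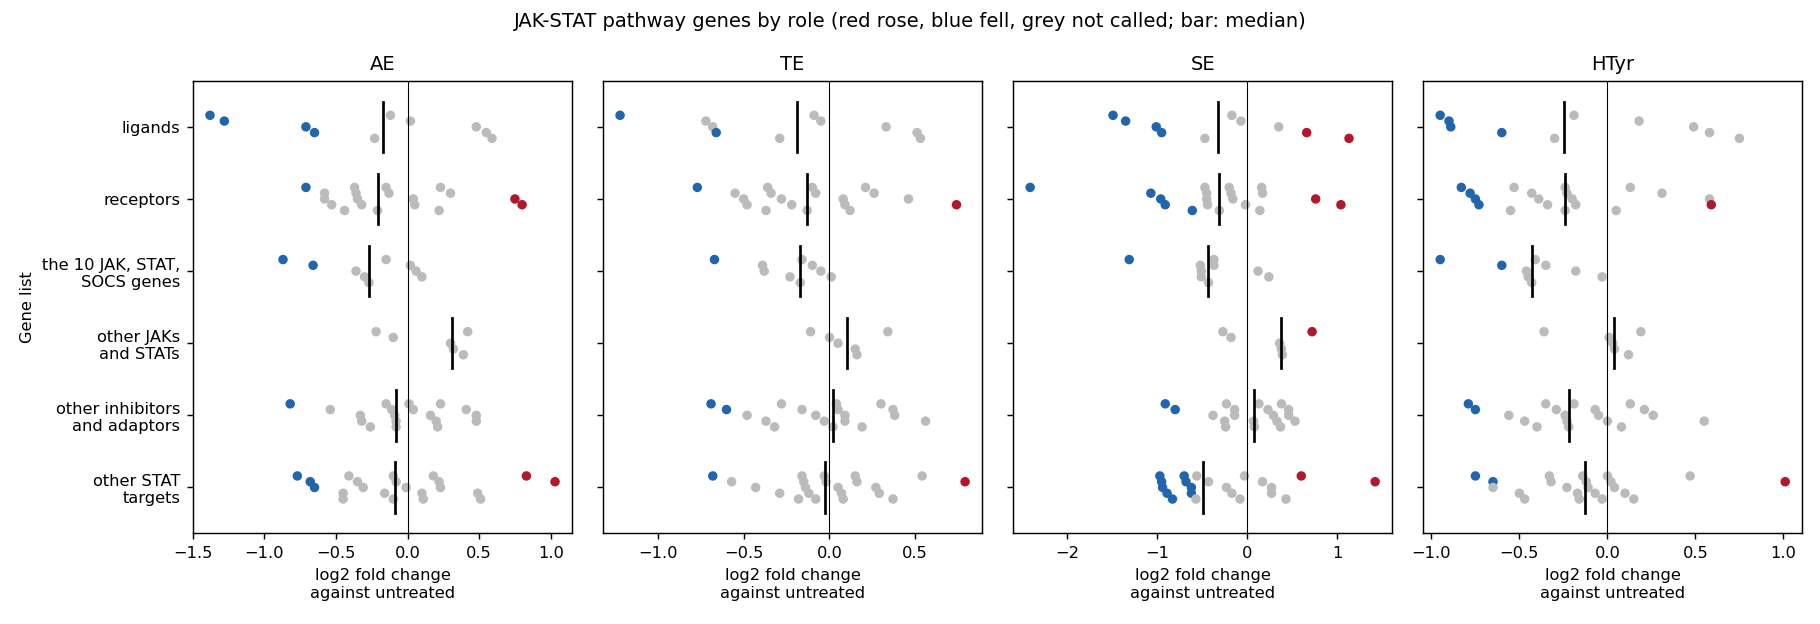
Change from untreated cells in log2(TPM + 0.5) (x axis, which differs between the 4 treatments) for every tested gene of the lists by role (y axis). Red points rose, blue points fell and grey points were not called, and the black bar is the median of the list. After SE 20 of the 76 genes outside the 10 JAK, STAT and SOCS genes fell and 7 rose.

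Between treatments, no pathway gene was called in AE against HTyr or AE against TE, beside 1.34% and 0.0873% of all tested genes. In these pairs limma gave 25 and 10 of the 76 at an unadjusted p under 0.05. In TE against HTyr 1 was called (1.32%, beside 0.705% of all tested genes), IL20RB, higher in TE by 0.66. For SE, 7 were called against HTyr (9.21%, beside 7.36% of all tested genes), 6 against AE (7.89%, beside 4.72%) and 13 against TE (17.1%, beside 8.36%).

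The libraries carried the markers of an epithelial line. EPCAM was at 269.8 to 345.6 TPM, and of 8 epithelial markers 7 passed the filter, while VIL1 was at or near 0. The summed level of the 8 was 4404 to 4516 TPM in untreated cells, 2635 to 2792 after AE, 2909 to 3013 after TE, 2402 to 2565 after SE and 2950 to 3276 after HTyr. The keratin genes KRT8, KRT18 and KRT19 make up most of this sum. KRT18 fell with all 4 treatments, KRT19 with the 3 extracts, KRT8 with AE and SE and CLDN4 with AE, SE and HTyr. EPCAM (0.00, -0.03, -0.04 and -0.17 for AE, TE, SE and HTyr), CDX2 (0.16 to 0.24) and CDH1 (-0.17 to -0.57) were not called. CDH1 passed the p threshold and not the fold after SE (-0.53, limma adjusted p = 0.00185) and HTyr (-0.57, 0.00189). EPCAM did so after HTyr (limma adjusted p = 0.0477). Of 8 immune markers 1 passed the filter, CD68, which was at 16.4 to 17.3 TPM untreated and 1.58 to 6.82 TPM treated, and fell with all 4 treatments. The defining immune gene PTPRC was at most at 0.04 TPM, MS4A1 and NKG7 were at 0 in all libraries, and the 8 summed to 16.8 to 17.5 TPM untreated and to 1.67 to 3.08 after AE, 4.58 to 6.06 after TE, 2.74 to 3.56 after SE and 5.67 to 6.88 after HTyr. Of 9 stromal and endothelial markers 1, COL1A1, passed, and the 9 summed to 6.42 to 8.23 TPM untreated and 4.59 to 9.21 TPM treated. The mitochondrially encoded share of all TPM was 15.6% to 18.7% untreated and 17.0% to 21.5% treated. With those transcripts left out and TPM rescaled, each member kept its call against untreated cells. The part of the keratin level and of CD68 in the fall of SOCS3 was not tested.

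TPM of each library add up to the same total (999999.51 to 1000000.95), so they do not give the depth of each library. The study states only an average depth over its samples. Counting error was not modelled apart from the spread between libraries. Between 13653 and 14034 genes per library had at least 1 TPM, and no 2 libraries were identical.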

How the data were processed

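RNA of HCT116 cells was sequenced by the authors after poly(A) capture with a stranded kit. The submitters' processing notes name STAR, RSEM and GRCh38, with tool versions not given in the sources used here. Values were deposited as TPM per gene, made by the authors for each library with no scaling between libraries and rounded to 2 decimals. TPM keep no depth, so no count test was run.

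Samples were grouped by their labels. Symbols and coordinates came from GENCODE 44, and 60463 of 60664 identifiers had a symbol. The filter (1 TPM or more in 3 or more of 15 libraries) kept 14899 genes and left out 45765. A single fit of 5 group means to log2(TPM + 0.5) was made in R 4.3.3 by limma 3.58.1, using a mean-variance trend, 10 residual and 3.42 prior degrees of freedom, and Benjamini-Hochberg adjustment over all tested genes. A call needed an adjusted p under 0.05 together with a change of over 1.5-fold in either direction. The fit was also run on simulated log2 values, drawn independently for each gene and library, with some genes changed in SE only. That run did not model TPM that add up to a fixed total, and no result here rests on it. Tables and figures were made in Python 3.11.15 (pandas 2.3.3, numpy 2.4.6, matplotlib 3.10.9).

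The genes and lists were chosen with earlier results of these data known. The text names all 10 genes. From each of 5 pathway lists it names up to 4 genes, those with the lowest adjusted p when all 4 treatments are averaged among genes called with any treatment, and for SOCS3 the 2 genes with the highest Pearson correlation. LIF, IL6, SOCS1 and the genes marked as such in the text lie outside that rule. Some genes of the lists are counted but not reported here by name. The alternatives were pseudocounts of 0.1 and 1, no filter, a minimum mean of 5 TPM, quantile and median-ratio scaling, no mitochondrially encoded genes, each library left out, only the groups compared, a replicate block and no trend.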

Additional observations from a re-analysis of the deposited data

How the results depend on the processing

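The fall of SOCS3 was called with each treatment and in the mean of the 4 treatments under all alternatives run. The number of members called was 2 with AE, and 1 to 2 when each library was left out. With SE it was 1, and rose to 4 with median-ratio scaling (SOCS3, STAT3, SOCS2 and PIM1), 2 with quantile normalization and 1 to 3 when each library was left out. With HTyr it was 2, and 1 with a pseudocount of 1, a mean of at least 5 TPM (JAK2 was then not tested), median-ratio scaling or quantile normalization, and 1 to 2 when each library was left out. In the mean of the 4 treatments it was 1, and 1 to 2 when each library was left out. In AE against HTyr it was 1, and 0 with a mean of at least 5 TPM or only the groups compared, and 0 to 1 when each library was left out. In TE against HTyr it was 1, and 0 with a pseudocount of 1, no filter, a mean of at least 5 TPM, either scaling or only the groups compared, and 0 to 1 when each library was left out. The cause of these changes was not tested, apart from genes lost to the stricter filter. That filter also left 8 pathway genes called with AE in place of 13, and 9 in the mean of the 4 treatments in place of 14.

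Genes that were not called sometimes changed sign. JAK2 with TE was -0.03 with median-ratio scaling, -0.02 with quantile normalization and -0.10 to 0.11 when each library was left out. STAT5B with AE was -0.02 with median-ratio scaling, and with HTyr it was 0.00 with quantile normalization and -0.16 to 0.12 when each library was left out. STAT5B with TE ran from -0.18 to 0.07 when each library was left out. IL6ST with AE was -0.07 with median-ratio scaling, -0.05 with quantile normalization and -0.08 to 0.16 when each library was left out, and ran from -0.01 to 0.24 with SE and from -0.10 to 0.03 in the mean. Median-ratio scaling moved the median of all genes by -0.09 for AE, -0.04 for TE, -0.10 for SE and 0.03 for HTyr against untreated cells. It moved that median by -0.12 in AE against HTyr and by -0.13 in SE against HTyr.

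Libraries with the same replicate number were not seen to deviate together. Deviations from the group means were correlated between libraries of different groups. Over 30 same-numbered pairs the correlation had a median of 0.00288 and exceeded 0.1 in 3. Over 60 pairs with different numbers the median was 0.0141, and 14 exceeded 0.1. Whether equal numbers were handled together cannot be told from these values. With the replicate block the count of members called in TE against HTyr was 0 in place of 1, and no other count of members changed. The unknown depth of each library and the rounding to 2 decimals limit STAT5A, CISH, JAK2 and STAT5B most.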
